A study of Mus musculus with 8 samples.

Results

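The genes described here encode proteins that carry other proteins and metabolites across the mitochondrial membranes. They were taken by symbol, as TIM genes (Timm followed by a number), TOM genes (Tomm followed by a number) and SLC25 genes (Slc25a followed by a number), and those with a mean raw count over 5 across the 8 libraries were tested. Of 72 such genes in a table of 22430, 48 passed: 13 of 15 TIM, 9 of 10 TOM and 26 of 47 SLC25 genes. Slc25a16 (mean count 5.25) was the member nearest above the minimum, and Slc25a53 (5) and Timm21 (4.75), an inner membrane import subunit, were the nearest below. The other 22 untested genes included 3 with no count in any library (Timm8a2, Slc25a31 and Slc25a54).

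The study profiled mRNA from a brain hemisphere of male mice of the inbred C57Bl/6JRj strain at 6 months (6m, young adult, n = 4) and at 24 months (24m, aged, n = 4), to find what changes in the aging brain. Each library came from 1 mouse and was read as native RNA on a nanopore (ONT direct RNA), so that an unamplified molecule gives a read. A whole hemisphere holds neurons, glia, vessels and choroid plexus, and in such bulk samples fewer cells of a type cannot be told apart from less RNA per cell.

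Most mitochondrial proteins are made in the cytosol. They enter through the translocase of the outer membrane (TOM) and are handed to translocases of the inner membrane (TIM): the TIM23 complex for proteins with a cleaved presequence, or small chaperones of the intermembrane space and the TIM22 complex for carriers. The SLC25 proteins are the main clients of that second route, and they exchange nucleotides, phosphate, amino acids and other metabolites across the inner membrane, on which neurons depend for ATP supply and for the cycling of glutamate.

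The small TIM chaperones hold their shape through 2 pairs of cysteines, each pair spaced by 3 other residues (a twin CX3C motif), and this motif tells them apart from the other TIM genes. A search of the coding sequences found 2 copies in 6 of the 13 tested TIM genes (Timm8a1, Timm8b, Timm9, Timm10, Timm10b and Timm13), 1 in Timm44 and none in the other 6. Both copies are shown for 4 of these genes, 5′ to 3′ on the coding strand, GRCm39, all in coding exons. The capitals mark the pair of cysteine codons that bounds the spacer sequence.
Timm13, first copy, chr10:80736355-80736369, minus strand: TGTttccggaagTGC
Timm13, second copy, chr10:80736076-80736090, minus strand: TGCatcgccatgTGC
Timm8b, first copy, chr9:50516254-50516268, plus strand: TGTtgggataagTGT
Timm8b, second copy, chr9:50516311-50516325, plus strand: TGCctctctagcTGT
Timm10, first copy, chr2:84660147-84660161, plus strand: TGCcaccggaagTGC
Timm10, second copy, chr2:84660210-84660224, plus strand: TGTctggaccgaTGT
Timm9, first copy, chr12:71172275-71172289, minus strand: TGCtttttggacTGT
Timm9, second copy, chr12:71170440-71170454, minus strand: TGTtcagaacatTGC

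SLC25 carriers are built of repeats, each with a signature of a proline, an acidic residue and a basic residue at fixed spacing. The signature was found 3 times in 16 of the 26 tested carriers, 2 times in 6 and once in 2, and not in Slc25a46 and Slc25a51. The first copy is shown for the 4 carriers that passed the adjusted p in the comparison of the ages (Slc25a23, Slc25a25, Slc25a44 and Slc25a39) and for the 3 with the highest mean count, 5′ to 3′ on the coding strand, GRCm39, in coding exons, with the proline, acidic and basic codons in capitals. Slc25a23, Slc25a25, Slc25a39 and Slc25a3 have the same 3 signature residues here (proline, aspartate, lysine), and Slc25a4 and Slc25a5 have glutamate as the acidic one.
Slc25a23, chr17:57360796-57360813, minus strand: CCTctgGACcgactcAAG
Slc25a25, chr2:32309072-32309089, minus strand: CCCctgGACagactgAAG
Slc25a44, chr3:88323307-88323324, minus strand: CCCatgGATgtcatcAGA
Slc25a39, chr11:102297225-102297242, minus strand: CCCctgGATgtggtgAAG
Slc25a3, chr10:90957796-90957813, minus strand: CCCctgGACttagtaAAG
Slc25a4, chr8:46663861-46663878, minus strand: CCGatcGAGagggtcAAA
Slc25a5, chrX:36059465-36059482, plus strand: CCCatcGAGagggtcAAG

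Library totals were between 573152 and 843706 counts at 6m and between 660398 and 1255424 at 24m and did not differ between the ages beyond their spread (two-sided p = 0.543 by exact permutation, 4 against 4). The aged library of replicate 1 stood apart from the other 7 on the second principal component (45.2, against -21.5 to 8.66), and calls of members that change without it are given beside them. Summed CPM (a count divided by its TMM-corrected library size, on a common scale) of the marker lists was higher at 24m without overlap for neurons (3031 to 3243 at 6m, 3723 to 3996 at 24m), oligodendrocytes (2070 to 2633, and 2873 to 3726) and microglia (744.7 to 816.2, and 941.9 to 1183), and lower without overlap for endothelium (1089 to 1194, and 803.6 to 940.5). The astrocyte list (2551 to 3034, and 2563 to 3298), the choroid plexus list (3087 to 4603, and 2389 to 4611) and the blood list (6090 to 10030, and 3350 to 6283) overlapped, although each of the 5 tested blood genes fell. Ttr made up most of the choroid plexus sum (3436 CPM at 6m). All 3 tested choroid plexus genes had log2FC below 0, Ttr at -0.11, Enpp2 at -0.46 and Folr1 at -0.84, and none was changed. Aldoc made up most of the astrocyte sum (2341 CPM at 6m), and of the 7 tested astrocyte genes Gfap (log2FC 1.94), Slc1a3 (1.65) and Gja1 (1.42) rose and Slc1a2 fell (-0.59). Bsg made up most of the endothelial sum (998.3 CPM at 6m and 741.6 at 24m). Of the 4 tested endothelial genes 3 had log2FC below 0, and Itm2a did not (0.06). In the neuron list 8 log2FC were above 0, while those of Tubb3 (-0.30) and Gad2 (-0.48) were below. The part of these cell types in the results that follow was not tested.

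Genes with a Benjamini-Hochberg adjusted p (padj) of at most 0.05 in edgeR's quasi-likelihood test and an absolute log2FC of at least 0.58 are called changed, and log2FC is the level at 24m over that at 6m on a log2 scale. Of the 48 members, 4 were changed (8.33%), all higher at 24m, beside 14.5% of the 9375 genes tested (10.3% higher and 4.17% lower). They were Timm29, a subunit of the TIM22 complex, Slc25a23 and Slc25a25, calcium-regulated carriers that exchange ATP-Mg for phosphate, and Slc25a44, a carrier of branched-chain amino acids. No member was changed downward. At an unadjusted p of at most 0.05 in edgeR's test 4 members were higher and 6 lower, beside 1715 higher and 1504 lower of the 9375 genes. DESeq2 and limma-voom likewise called 4 members changed upward and 0 downward. The share of changed members was thus below the background of edgeR and of limma-voom (12.6%) and near that of DESeq2 on raw counts (8.9%). On 4 genes it is given as a description. With the adjusted p alone 7 members passed, 4 higher and 3 lower, beside 21.7% of all genes (12.3% higher and 9.42% lower). Without the aged library of replicate 1, 11 members passed the adjusted p, the same 7 and Slc25a3, Slc25a4, Timm10b and Tomm40l, all 4 of the latter inside the fold minimum. The CPM of the ages did not overlap in 10 members, of which 4 were higher and 6 lower, beside 21.1% of all genes (11.1% higher and 9.96% lower).

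**Figure D1:**
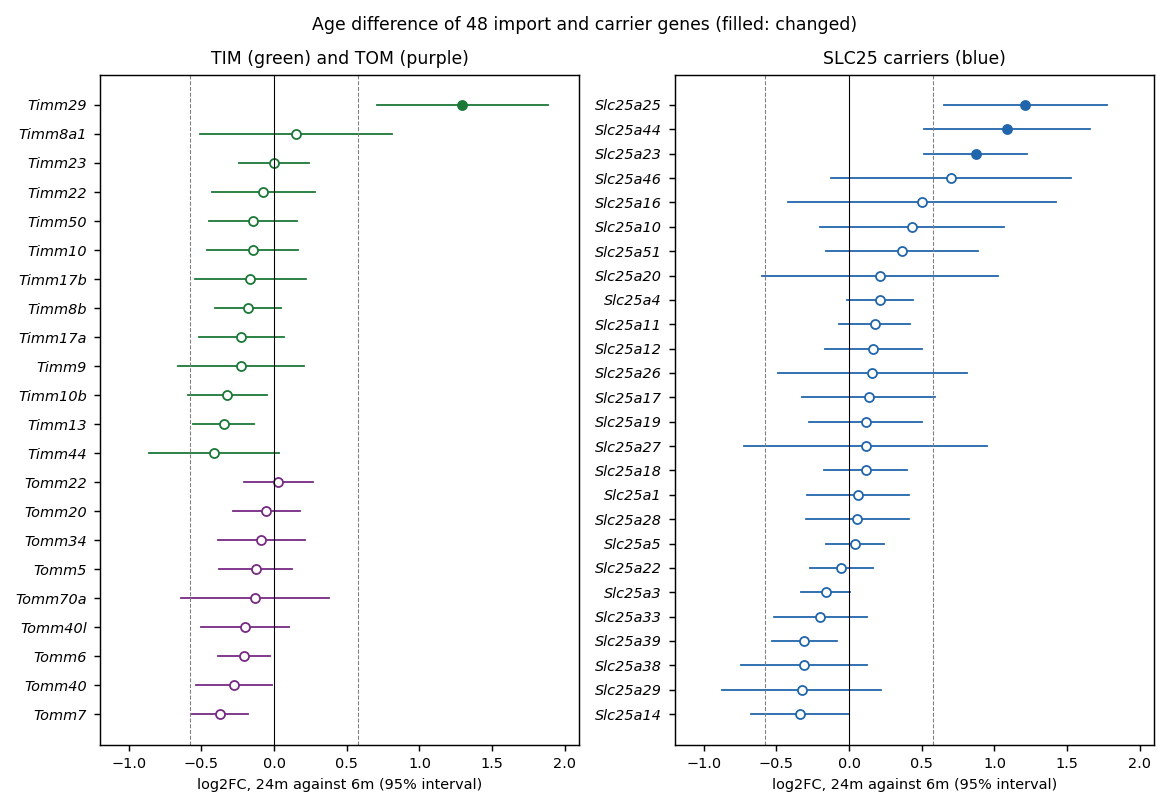
Log2FC (24m against 6m) of the 48 tested members with 95% intervals, ordered within TIM (green), TOM (purple) and SLC25 (blue), with n = 4 mice per age. Filled points are changed, dashed lines stand at -0.58 and 0.58, and the points left of 0 make up 10 of 13 TIM, 8 of 9 TOM and 7 of 26 SLC25 genes.

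Timm29 (chr9:21504018-21507266, plus strand) was measured at 7.39, 14.5, 9.96 and 18.8 CPM in the 6m libraries and at 25.9, 35.4, 23.0 and 36.1 CPM in the 24m libraries. Every aged library lay above every young adult one, with a log2FC of 1.30 (SE 0.287, edgeR's quasi-likelihood test, padj = 0.00222). These levels rest on few reads, 6 to 15 counts per library at 6m and 17 to 47 at 24m. Timm29 shares exon bases with Yipf2 on the opposite strand, which was not changed (log2FC 0.23, padj = 0.576 in edgeR's test), and the strand setting of the counting is not given in the sources used here.

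The channel and the receptors of the inner membrane showed no such difference. Timm22, the channel of the complex to which Timm29 belongs, measured 54.3 ± 12.3 CPM in young adult and 53.0 ± 4.72 CPM in aged libraries (SD, n = 4), a log2FC of -0.07 with a 95% interval from -0.428 to 0.279. Its opposite-strand neighbour Abr was higher at 24m (log2FC 1.495). For Timm23, the channel-forming subunit of the presequence route, the levels were 147.1 ± 10.4 and 146.8 ± 13.2 CPM (SD, n = 4), and the interval of its log2FC ran from -0.242 to 0.242, inside the fold minimum. Timm23 has near-identical matches in 6 other annotated genes, 5 of them pseudogenes, so its count is uncertain.

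The other tested Timm genes of the TIM23 complex and its motor had log2FC below 0, and none passed the adjusted p in edgeR's test. Timm17a and Timm17b, the alternative partners of Timm23, had log2FC of -0.23 (padj = 0.271) and -0.16 (padj = 0.576). Timm50, the receptor that takes presequences from TOM, had a log2FC of -0.14 (padj = 0.526). Timm44, which tethers the import motor to the channel, ranged from 28.9 to 45.5 CPM at 6m and from 21.8 to 41.2 CPM at 24m, and its log2FC of -0.41 (padj = 0.186) had an interval from -0.861 to 0.037. A fall of Timm44 past the fold minimum is thus not excluded.

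Of the 6 small TIM genes with the twin CX3C motif, 5 had log2FC below 0. Timm13 was measured at 402.5, 374.3, 380.9 and 374.2 CPM at 6m and at 356.7, 251.6, 303.3 and 300.7 CPM at 24m. The ages did not overlap, the highest aged library being replicate 1. The difference passed the adjusted p but not the fold minimum (log2FC -0.35, SE 0.102, padj = 0.0173 in edgeR's test), and the adjusted p was above 0.05 without the 24m library of replicate 2 (0.0933), without the 6m library of replicate 1 (0.0706) and with library sizes alone (0.0691). Timm8b, which pairs with Timm13, ranged from 282.5 to 325.5 CPM at 6m and from 231.8 to 318.3 CPM at 24m (log2FC -0.18, padj = 0.268). Timm10b, Timm9 and Timm10, which chaperone carriers, had log2FC of -0.32 (padj = 0.0857), -0.23 (padj = 0.479) and -0.15 (padj = 0.532) in the same test. Without the aged library of replicate 1 the log2FC of Timm10b was -0.41 (padj = 0.0145). Timm8a1, the homolog of the gene of a deafness-dystonia syndrome, was at 14.5 ± 2.15 and 15.2 ± 6.40 CPM (SD, n = 4), a log2FC of 0.15 with an interval from -0.507 to 0.811.

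Over the 13 TIM genes, 10 log2FC were below 0 and the median was -0.164, beside a median of -0.003 and 50.3% below 0 over all genes tested. Summed over all 15 TIM genes of the table, CPM was 1551, 1495, 1516 and 1499 at 6m and 1474, 1226, 1196 and 1417 at 24m. All aged sums lay below all young adult sums, the nearest being 1474 and 1495. This separation depends on the TMM factors, which ran from 0.958 to 0.972 at 6m and from 0.993 to 1.064 at 24m. With library sizes alone the TIM sums of the ages overlap.

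None of the 9 TOM genes was changed by edgeR, DESeq2 or limma-voom. At an unadjusted p of at most 0.05 in edgeR's test 3 were lower, beside 1504 of all 9375 genes tested. Tomm7, a small subunit that shapes the assembly of the TOM complex, was at 413.6, 377.9, 395.8 and 418.2 CPM at 6m and at 315.5, 284.9, 305.8 and 336.0 CPM at 24m. The ages did not overlap (log2FC -0.37, SE 0.0932, padj = 0.00594 in edgeR's test), and the whole 95% interval, -0.562 to -0.179, lay inside the fold minimum. Its adjusted p stayed at most 0.05 in 19 of 19 alternatives. Tomm7 has 2 near-identical pseudogene copies.

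Tomm6 and Tomm40 did not overlap between the ages either but missed the adjusted p. Tomm6, another small subunit and the most abundant TOM mRNA, was at 541.6, 535.2, 511.5 and 600.2 CPM at 6m and at 480.1, 462.7, 486.3 and 471.7 CPM at 24m (log2FC -0.20, padj = 0.0948 in edgeR's test). Tomm40, the channel itself, was at 151.4, 153.7, 151.8 and 150.7 CPM at 6m and at 140.2, 99.8, 129.2 and 134.2 CPM at 24m (log2FC -0.27, padj = 0.125). The SD of Tomm40 was 1.29 CPM over the young adult libraries and 17.9 CPM over the aged ones.

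The receptors of the outer membrane were nearly level between the ages. Tomm20, the receptor for presequences, was at 176.8 ± 14.4 and 170.1 ± 8.96 CPM (SD, n = 4), with a log2FC of -0.05 and an interval from -0.284 to 0.18. Tomm22, the central receptor, was the only TOM gene with a log2FC above 0 (0.03, interval -0.21 to 0.27), although 6 rather than 8 of the 9 lay below 0 with library sizes alone. Its opposite-strand neighbour Josd1, at a mean of 11.5 counts, was higher at 24m (log2FC 2.13). Tomm70a, the receptor that docks carriers with their chaperones, varied more between mice, from 20.1 to 51.0 CPM at 6m and from 21.3 to 42.2 CPM at 24m (log2FC -0.13, interval -0.638 to 0.38). Tomm5, the third small subunit, had a log2FC of -0.13, Tomm34, a cytosolic cochaperone, of -0.09, and Tomm40l, a relative of Tomm40, of -0.20 (padj = 0.357 in edgeR's test). Tomm40l was highest in the aged library of replicate 1, and without that library its log2FC was -0.36 (padj = 0.0255).

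Summed TOM CPM was 1834, 1815, 1857 and 1943 at 6m and 1725, 1566, 1625 and 1621 at 24m, again with no overlap between the ages. The median log2FC of the 9 genes was -0.129. Without the aged library of replicate 1 it was -0.195, and that of the TIM genes -0.194.

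**Figure D2:**
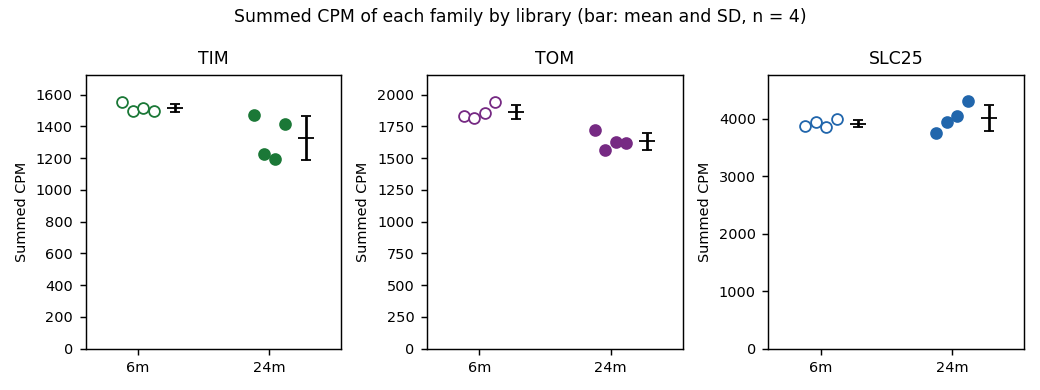
Summed CPM per library of all TIM, TOM and SLC25 genes in the table (y axis from 0), with points for the 4 mice of each age and a bar for the mean and SD. With TMM scaling, TIM and TOM sums lie lower at 24m without overlap, while SLC25 sums run from 3863 to 3992 at 6m and from 3757 to 4311 at 24m. With library sizes alone the TIM sums overlap.

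The 3 changed carriers were all higher at 24m. Slc25a23 (chr17:57350705-57366905, minus strand), which has calcium-binding EF-hands and adjusts the adenine nucleotide pool of the matrix, was at 66.5, 66.9, 59.7 and 67.8 CPM at 6m and at 103.6, 108.1, 171.5 and 97.4 CPM at 24m. The aged library of replicate 3 was the highest, and the other 3 aged libraries still lay above all young adult ones. The log2FC was 0.87 (SE 0.171, padj = 0.00078 in edgeR's test) with that library and 0.66 (padj = 0.00463) without it.

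Slc25a25 (chr2:32303547-32341482, minus strand), a second EF-hand carrier of the same kind, was at 19.7, 5.43, 12.5 and 20.1 CPM at 6m and at 36.6, 31.2, 43.5 and 31.5 CPM at 24m. All aged libraries lay above all young adult ones, of which the lowest, replicate 2, held 3 counts (log2FC 1.21, SE 0.273, padj = 0.00253 in edgeR's test). Without that library the log2FC was 1.02. The other relatives of this group were close to undetected, Slc25a24 at a mean of 0.25 counts per library and Slc25a41 at 0.125, and were not tested.

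Slc25a44 (chr3:88317802-88332564, minus strand) was at 12.3, 10.9, 9.96 and 15.1 CPM at 6m and at 35.1, 22.9, 24.3 and 23.8 CPM at 24m. The ages did not overlap (log2FC 1.08, SE 0.278, padj = 0.00674 in edgeR's test), on 6 to 12 counts per library at 6m and 19 to 31 at 24m. Without the aged library of replicate 1, its highest, the log2FC was 0.96.

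**Figure D3:**
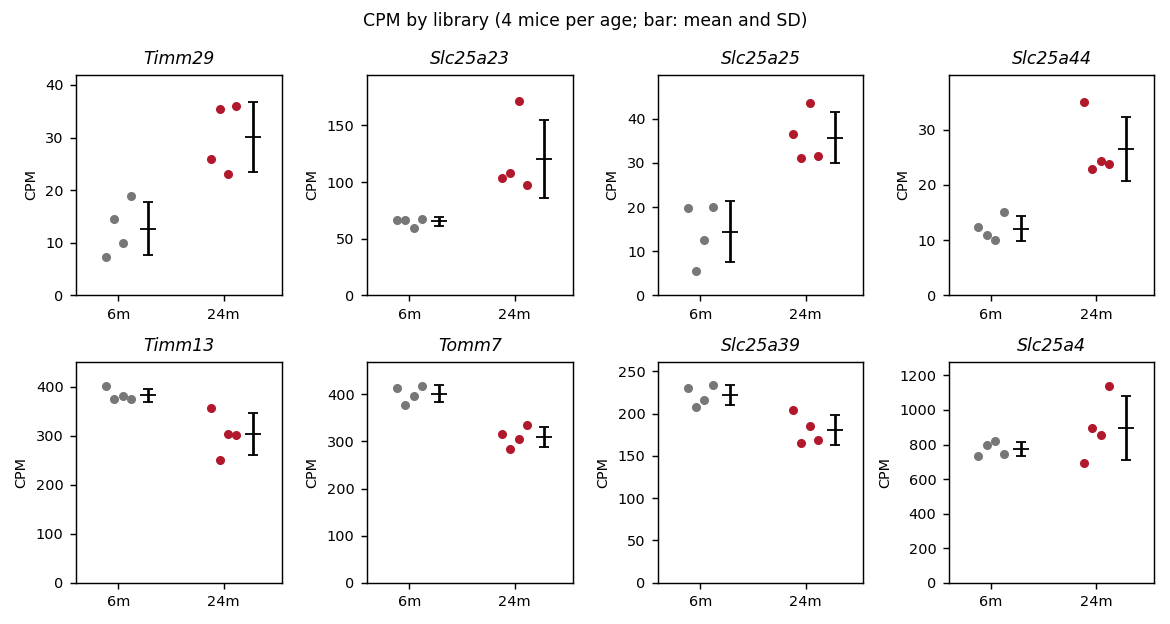
CPM in every library (y axes from 0) for the 4 changed members, Timm29, Slc25a23, Slc25a25 and Slc25a44, and for Timm13, Tomm7, Slc25a39 and Slc25a4, with points for the 4 mice per age and bars for mean and SD. In the top row all aged libraries lie above all young adult ones, in Timm13, Tomm7 and Slc25a39 all lie below, and in Slc25a4 the ages overlap.

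The abundant carriers of energy metabolism stayed within the fold minimum. Slc25a3, which imports the phosphate for ATP synthesis, was at 1102, 1065, 1111 and 1148 CPM at 6m and at 1047, 956.5, 953.4 and 1002 CPM at 24m. Its ages did not overlap, yet the difference missed the adjusted p (log2FC -0.16, SE 0.0822, padj = 0.164 in edgeR's test). It passed in 3 of 19 alternatives, at a log2FC of -0.18 (padj = 0.0341) without the aged library of replicate 1 and of -0.26 with the length offset, alone (padj = 0.0179) or with a replicate block (padj = 0.0303). Slc25a4, the adenine nucleotide carrier that prevails in nerve and muscle, was at 736.1, 797.4, 821.4 and 745.9 CPM at 6m and at 690.5, 893.1, 853.5 and 1140 CPM at 24m, so that the ages overlapped, with the aged library of replicate 1 lowest and that of replicate 4 highest (log2FC 0.21, interval -0.011 to 0.439, padj = 0.168). Its log2FC was 0.33 (padj = 0.00316 in edgeR's test) without the former library and 0.09 (padj = 0.563) without the latter. It also passed the adjusted p, under the fold minimum, with limma-voom (log2FC 0.40, padj = 0.0352), DESeq2 on quantile-normalized counts (0.39, padj = 0.0414) and library sizes alone (0.32, padj = 0.0402). Slc25a5, its more widely expressed relative, had a log2FC of 0.04 (interval -0.157 to 0.238), and the ratio of Slc25a4 to Slc25a5 ran from 1.5 to 1.83 at 6m and from 1.59 to 1.98 at 24m.

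The aspartate/glutamate, glutamate, oxoglutarate, citrate and carnitine carriers did not pass the test. Slc25a12, the calcium-regulated aspartate/glutamate carrier of neurons, was at 110.4 ± 13.2 and 122.3 ± 33.0 CPM (SD, n = 4), with a log2FC of 0.17 (padj = 0.502 in edgeR's test). Without the aged library of replicate 1, its lowest at 74.7 CPM, the log2FC was 0.33. Its relative Slc25a13 held a mean of 1.875 counts and was not tested. The glutamate carriers Slc25a22 and Slc25a18 had log2FC of -0.05 (interval -0.27 to 0.164) and 0.11 (interval -0.17 to 0.397). For Slc25a11, the oxoglutarate carrier of the malate shuttle, log2FC was 0.18, for the citrate carrier Slc25a1 it was 0.06, and for the carnitine-acylcarnitine carrier Slc25a20, at 10.4 CPM at 6m, it was 0.21 with an interval from -0.598 to 1.03.

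Slc25a39, a carrier that brings glutathione into the matrix, was the only SLC25 gene lower at 24m past the adjusted p. It was at 230.2, 207.9, 216.6 and 233.6 CPM at 6m and at 204.2, 165.3, 185.6 and 168.7 CPM at 24m, without overlap, the nearest values being 207.9 and 204.2 (log2FC -0.31, SE 0.11, padj = 0.0453 in edgeR's test). The adjusted p was at most 0.05 in 6 of 19 alternatives, ranging from 0.00907 to 0.176 over them, and it was above 0.05 without any single library other than the aged one of replicate 1. The uncoupling-protein relatives Slc25a14 and Slc25a27, which are best known from brain, had log2FC of -0.34 (padj = 0.146) and 0.11 (padj = 0.884), the latter at 5.88 counts per library.

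Of the 26 tested carriers, 19 had log2FC above 0, with a median of 0.125 and a range from -0.34 to 1.21. The 11 tested carriers not yet described, among them Slc25a46, a relative set in the outer membrane (log2FC 0.70, interval -0.123 to 1.53), Slc25a51, the carrier of NAD+ (0.36), and the iron carrier Slc25a28 (0.06), were not changed. Among all 44 members that were not changed, the 95% interval reached past the fold minimum in 16, for which a change of that size is not excluded. The intervals of 28 members lay wholly inside it. Library sizes without TMM scaling moved the median of all genes to 0.102, with medians of -0.059, -0.023 and 0.231 for TIM, TOM and SLC25, and a correction for transcript length moved them to -0.268, -0.208 and 0.073. In these and the other alternatives the TIM and TOM medians stayed below 0 and the SLC25 median above 0.

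Because lengths differ between the families, levels of different genes were compared as CPM per kilobase of coding sequence. On this scale Tomm6 (2432 at 6m) and Tomm7 (2389) stood highest, followed by Timm13 (1330), Timm8b (1210) and Slc25a3 (1030). The divisor weighs on this order, since Tomm6 and Tomm7 have coding sequences of 225 and 168 nt and a direct RNA read stands for a molecule of any length. In CPM without division by length, Slc25a3 (1106 at 6m) and Slc25a4 (775.2) were above Tomm6 (547.1) and Tomm7 (401.4). Again in CPM per kilobase at 6m, Slc25a4 (864.2) was above Slc25a5 (536.2). On that scale the TIM23 channel subunit Timm23 (233.5) was above Timm50 (87.6) and Timm44 (28.4). The changed genes were among the lower ones in CPM per kilobase, with Slc25a23 at 46.5 at 6m and 85.6 at 24m. Timm29 was at 15.8 and 37.6, Slc25a44 at 12.8 and 28.1, and Slc25a25 at 9.33 and 23.1. Across the 26 carriers, transcript length and log2FC had a Spearman ρ of 0.538. It was 0.154 over the TIM genes, 0.3 over the TOM genes and 0.297 over all members, beside 0.126 over 9349 tested genes with a length. The genes share the same 8 libraries, and these values are given as a description. The annotated transcripts of the 3 changed carriers measure 3410 nt (Slc25a23), 4254 nt (Slc25a25) and 3508 nt (Slc25a44), against a median of 2778.5 nt over the tested carriers. The transcript of Timm29 measures 3170 nt, against a median of 3178 nt over the tested TIM genes. With the length correction the log2FC of Slc25a25 was 1.04 and that of Slc25a44 0.94, and all 4 changed members were still changed.

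The import machinery and carriers outside the symbol rule were examined as 3 lists with 44 tested genes of 48. Of these, 2 rose and 1 fell (6.82% changed), beside 14.5% of all genes tested (10.3% higher and 4.17% lower). DESeq2 on raw counts and limma-voom each called 1 partner higher and 1 lower, beside 8.9% and 12.6% of all genes changed. In the list of the presequence motor and processing, Hspd1, the HSP60 chaperonin that folds imported proteins, was at 118.2, 121.1, 134.4 and 91.7 CPM at 6m and at 74.7, 65.5, 65.3 and 92.0 CPM at 24m. It fell (log2FC -0.63, SE 0.155, padj = 0.00528 in edgeR's test), though the ages overlapped, the lowest young adult and the highest aged library both being of replicate 4. Its log2FC came inside the fold minimum in 4 of 19 alternatives, at -0.52 with library sizes alone, -0.54 without 6m replicate 3, -0.56 without 24m replicate 2 and -0.56 without 24m replicate 3. Romo1, a small inner membrane protein of the TIM23 complex, was lower without overlap and past the adjusted p, but inside the fold minimum (log2FC -0.40, padj = 0.00775 in edgeR's test). The 13 genes of that list other than Hspd1, which also hold the motor chaperone Hspa9 (0.22) and the processing peptidase subunits Pmpca (-0.28) and Pmpcb (-0.30), were not changed, and the list's median was -0.203.

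In the list of outer membrane insertion, intermembrane space import and cristae organisation, 0 of 14 tested genes were changed in edgeR's test, in DESeq2 or in limma-voom. At an unadjusted p of at most 0.05 in edgeR's test 1 was higher and 4 were lower, beside 1715 and 1504 of all 9375 genes tested. The median log2FC of the list was -0.226. Micos10 and Micos13, subunits of the complex that shapes cristae junctions, were lower past the adjusted p but under the fold minimum (log2FC -0.34, padj = 0.0142, and -0.45, padj = 0.00633, in edgeR's test). Samm50, which inserts barrel proteins such as Tomm40, had a log2FC of -0.30 (padj = 0.119).

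Among the other carriers and pores, 16 were tested and the median log2FC was 0.058. Mcu, the pore of the calcium uniporter, was at 6.15, 0, 6.22 and 2.51 CPM at 6m and at 15.2, 15.6, 11.5 and 13.0 CPM at 24m, without overlap (log2FC 1.74, SE 0.451, padj = 0.00727 in edgeR's test). It rose from 0 to 5 counts per library to 9 to 17, and it was changed in 19 of 19 alternatives. Sfxn3, a sideroflexin of the inner membrane, was at 14.8, 23.5, 23.7 and 20.1 CPM at 6m and at 25.9, 32.2, 42.2 and 34.5 CPM at 24m (log2FC 0.74, padj = 0.0258), and it was changed in 11 of 19 alternatives. It was not changed with DESeq2, limma-voom or the length offset, nor without 6m replicate 1 (padj = 0.103), 6m replicate 4 (padj = 0.0538) or 24m replicate 3 (padj = 0.0897). Vdac1, the outer membrane pore, was higher without overlap and under the fold minimum (log2FC 0.26, padj = 0.037), while Vdac2 and Vdac3 had log2FC of -0.20 and -0.14. With DESeq2 on raw counts the adjusted p of Vdac1 was 0.0583. In edgeR's test it was 0.0503 to 0.118 without any single 6m library and 0.0527 with the length offset. It was 0.00585 with limma-voom and, in edgeR's test, 0.00237 with library sizes alone. Ucp1, the uncoupling protein of brown fat, had no count in any library.

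**Figure D4:**
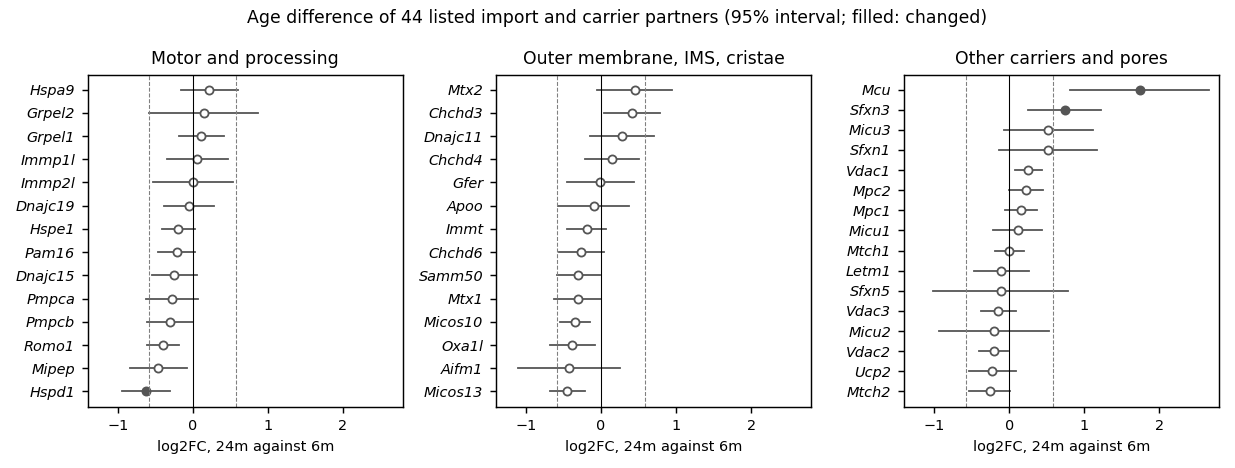
Log2FC (24m against 6m) with 95% intervals of the 44 tested partner genes in 3 panels, the import motor and processing, the outer membrane, intermembrane space (IMS) and cristae, and other carriers and pores, with n = 4 mice per age. Filled points are changed, which holds for Hspd1 (-0.63), Mcu (1.74) and Sfxn3 (0.74), and dashed lines stand at -0.58 and 0.58.

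Other nuclear genes of mitochondria gave a scale for these values. Of 86 tested subunits of the respiratory complexes, 79 had log2FC below 0 (median -0.273). Past the adjusted p 42 were lower, beside 883 (9.42%) of all 9375 genes tested. None of the 86 was changed with the fold minimum in edgeR's test, in DESeq2 or in limma-voom. At an unadjusted p of at most 0.05 in edgeR's test 55 were lower, beside 1504 of all 9375 genes tested. Of 78 mitochondrial ribosomal protein genes, 65 were below 0 (median -0.194). Of the 78, 4 were changed, all lower (5.13%), beside 4.17% of all genes tested that were changed downward.

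Promoters from RefSeq (GRCm38.p6, 250 bases before to 50 after the gene start) were found for 40 of the 48 members, namely 13 TIM, 7 TOM and 20 SLC25 genes, and were searched on both strands for motifs of factors known for nuclear genes of mitochondria. The ETS motif CCGGAAGT, the letters to which NRF-2 (GABP) binds, was in 6 member promoters (15.0%), 4 of them TIM genes, beside 4.31% of 27025 genes. Those 27025 are all genes with a promoter sequence, most of them not tested here, and the share over tested genes alone was not computed. The NRF1 motif (GCGCA, any base, GCGC) was in 3 members (7.5%) beside 5.19%, the YY1 motif AAGATGGCG in 2 (5.0%) beside 1.64%, and the ERR motif TCAAGGTCA in 1 (2.5%) beside 0.466%. The sites of Timm29, the changed TIM gene, of Timm10 and of the receptor Tomm20 are shown with the motif in capitals, read on the gene's strand. In Timm29 and Tomm20 the match is to the reverse complement. No 2 matches overlapped, and a match of letters is a description only.
Timm29, ETS, chr9:21592501-21592524, plus strand: ctctgaccACTTCCGGgctccact
Timm10, ETS, chr2:84827029-84827052, plus strand: acttccttCCGGAAGTgacccacg
Tomm20, NRF1, chr8:126945924-126945949, minus strand: gtccatctGCGCGTGCGCaccaggcg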

How the data were processed

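Raw counts per gene of 8 ONT direct RNA libraries were used as deposited. The authors mapped reads to GRCm39 with minimap2 (2.24 in the submitters' processing notes) and counted with featureCounts. Strand, overlap and multi-mapping settings are not given in the sources used here. The 30 of 48 members that share exon bases with an opposite-strand gene are therefore uncertain. So are the 9 with a near-identical match in another annotated gene (BLAST+ 2.17.0, identity at least 95% over at least 50% of the coding sequence). For Timm10b and Tomm6 the matched genes all share exon bases with the member, so these matches are not separate copies. The labels name a cDNA kit, and the methods were followed. The authors' later filter and normalizations are not part of these counts.

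Symbols came from GENCODE vM39 (22281 of 22430 matched). All genes with a mean count over 5 were fitted together in R 4.3.3 by edgeR 4.0.16 (TMM, quasi-likelihood test, age alone in the model), checked on simulated data. Intervals are at 95%. Motifs were searched with Python 3.11.15. Alternatives were DESeq2 1.42.0 on raw and quantile-normalized counts, limma-voom (3.58.1) with quantile normalization, library sizes alone, RLE factors, no mitochondrially encoded genes, no filter, filterByExpr, each library left out, a length offset, a replicate block, both, and the adjusted p alone. Named members are the changed ones, the 3 most abundant of each family and a list by role. Other names were picked with values in view, and members and lists with earlier results of these data known.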

Additional observations from a re-analysis of the deposited data

Results flagged for a closer look

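Of 104 groups of 4 libraries examined for a single distant value (library totals, summed CPM and each member's CPM at each age), 6 had one, where about 5 arise by chance. The young adult library of replicate 2 had a total of 573152 counts, far below the next lowest at 818963. Tomm40l, a relative of the outer membrane channel, was at 179.9 CPM in the aged library of replicate 1, above the next at 117.5, and its log2FC was -0.20 with and -0.36 without that library (padj = 0.357 and 0.0255 in edgeR's test). Slc25a33, a carrier of pyrimidine nucleotides, was at 88.37 CPM in the young adult library of replicate 3, below the next at 121.8. Slc25a23 was distant at both ages in replicate 3, at 59.74 CPM in the young adult library, the lowest, and at 171.5 CPM in the aged library, the highest. Its log2FC was 0.83 without the former and 0.66 without the latter, and it was changed in both. Slc25a44 was at 35.06 CPM in the aged library of replicate 1, above the next at 24.3, and its log2FC was 0.96 without it.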

How the results depend on the processing

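The 4 changed members were changed in 19 of 19 alternatives, with log2FC from 1.101 to 1.595 for Timm29, 0.66 to 0.99 for Slc25a23, 1.02 to 1.41 for Slc25a25 and 0.94 to 1.23 for Slc25a44, and no other member was changed in any of them. With the adjusted p alone, 7 members passed (TIM 2, TOM 1, SLC25 4) and 7 of the listed partners. Over all genes, 1359 were changed, 834 with DESeq2 on raw counts, 824 with DESeq2 on quantile-normalized counts, 989 to 1594 with a library left out (1594 without 24m replicate 1), and 2038 with the adjusted p alone. Of the changed genes 71.2% were higher, but 84.5% with library sizes alone, 59.2% with limma-voom and 60.6% with the length offset. The cause was not tested.

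The median log2FC of TIM was -0.059, of TOM -0.023 and of SLC25 0.231 with library sizes alone, where all genes moved to 0.102. With the length offset TIM was at -0.268 and TOM at -0.208. With a library left out, the medians ran from -0.194 to -0.116 for TIM, from -0.195 to -0.088 for TOM and from 0.09 to 0.189 for SLC25 (0.187 without 6m replicate 2 and 0.189 without 6m replicate 4). Over the 19 alternatives, 9 to 12 of the TIM and 6 to 9 of the TOM genes had log2FC below 0, and 16 to 20 of the SLC25 genes above 0. The listed partners had 1 to 4 changed genes with a library left out, the 1 without 24m replicate 3.

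The sample titles do not say whether equal replicate numbers pair the samples, and correlations of so few libraries cannot settle it. Deviations from the age means correlated at 0.0509, 0.0018, 0.00517 and -0.135 in same-numbered libraries. Differently numbered ones ran from -0.0858 to 0.104. With a replicate block, 1308 genes and the same count of 4 members were changed, and with the block and the length offset the medians were -0.279 for TIM, -0.181 for TOM and 0.055 for SLC25.

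Depth limits the low genes: Timm29 and Slc25a44 rest on means of 19.1 and 16.4 counts per library, and the 24 family genes at or below the count minimum were not tested.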
